A study of Mus musculus with 8 samples.

Results

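The kinetochore, spindle and mitotic regulators described here are 50 genes chosen by symbol, all of which were on the array and among the 13337 genes tested. They are 5 spindle checkpoint proteins, 5 proteins of the anaphase-promoting complex (APC/C) pathway and sister separation, 4 mitotic kinases, the 4 subunits of the chromosomal passenger complex, 8 inner and 6 outer kinetochore proteins, 6 spindle microtubule proteins, 2 cytokinesis proteins, 6 condensin subunits and topoisomerase, and 4 further proliferation proteins. They were measured in LLC1, a Lewis lung carcinoma line from C57BL/6 mice, 4 h after X-rays. Cells had been given 2 Gy once (3 arrays), 10 Gy once (2 arrays) or 2 Gy in each of 5 fractions (5x2 Gy, 3 arrays), and untreated LLC1 cells were the partner on every array. Replicate 3 of 10 Gy was not analysed here, and the labels do not give the time between fractions. Every array held irradiated RNA in Cy5 and untreated RNA in Cy3 with no dye swap, so that any dye bias of a probe enters every value against untreated cells. The labels call the replicates biological and do not say which cultures were separate. If some were not, the p-values measure technical spread in part. A value below is a log2 ratio of irradiated over untreated cells, and a gene was called where the p-value of the limma fit, adjusted over all genes, was under 0.05.

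The kinetochore is the protein structure that joins a centromere to spindle microtubules. Its inner proteins sit on chromatin that carries the histone variant CENP-A, and its outer proteins bind the microtubules. While kinetochores lack attachment, the spindle checkpoint keeps Cdc20 from activating the APC/C, the ubiquitin ligase that marks securin and cyclin B for destruction. Most of these genes are transcribed periodically and peak in G2 and mitosis. In mammalian cells the MuvB core works with B-Myb and FoxM1 to activate many of them and, as the DREAM complex, to repress them, largely through CHR promoter elements. After DNA damage, p53 and p21 promote the formation of DREAM.

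The 8 arrays were spread over 2 slides: replicate 1 of 10 Gy shared slide 1 with the 3 arrays of 2 Gy, and replicate 2 of 10 Gy shared slide 2 with the 3 arrays of 5x2 Gy. The 2 arrays of 10 Gy stood apart from each other: the correlation of their log2 ratios across all genes was 0.427, whereas replicate 2 correlated with the 5x2 Gy arrays, on its own slide, at 0.748 to 0.855. These correlations are across genes, which are not independent, and arrays of a slide share the slide. The p53 targets Cdkn1a, Mdm2 and Ccng1 rose at 10 Gy: Cdkn1a had 3.73 on replicate 1 and 1.47 on replicate 2, Mdm2 2.90 and 1.38, and Ccng1, in the other order, 1.55 and 2.44. In the untreated channel the epithelial keratins Krt8, Krt18 and Krt19 and the mesenchymal genes Vim, Cdh2, Fn1 and S100a4 were above background on all 8 arrays. Epcam, Cdh1 and the lung factor Nkx2-1 were above background on none, and nor were Ptprc, Adgre1 and Pecam1 of leukocytes and endothelium. Cd68 and Cd3e, which were listed as leukocyte markers, were above background in untreated cells on all 8 arrays. Of these markers, Cd68 was called higher at 10 Gy (1.89 on replicate 1 and 0.55 on replicate 2, fit 1.22, adjusted p = 0.00851) and at 5x2 Gy (fit 0.84). Krt18 (-0.89) and Krt19 (-0.87) were called lower at 10 Gy, with -0.81 and -0.97 for Krt18 and -0.71 and -1.02 for Krt19 on replicates 1 and 2. The part of these markers in the results below was not tested.

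At 10 Gy, 37 of the 50 genes fell against untreated cells and 1, Cenpt, rose, where 15.8% of all genes were called lower and 12.4% higher (28.3% in all). The median over the 50 genes was -1.24, against -0.06 over all genes. Of the genes that fell, 27 did so by at least 2-fold, against 330 of all 13337 genes. The fall was unequal on the 2 arrays. The median of the 50 genes was -1.76 on replicate 1, where 39 of 50 stood at or below -1, against 7.69% of all genes. On replicate 2 the median was -0.54 and 2 of 50 reached -1, against 1.27% of all genes. Even so, 41 of 50 lay below 0 on both arrays, against 33.5% of all genes. In RNA from whole cultures, fewer cells in mitosis and less of these RNAs per cell cannot be told apart. Fitted without replicate 1, 31 genes were called lower, 29 of them among the 37, and 35.2% of all genes were called in either direction. Without replicate 2 it was 43, with 36 among the 37, where 45.4% of all genes were called. Fitted on the 10 Gy arrays alone, with their own spread, 14 genes were called lower and Cenpt was not called (2.25% of all genes), and with array weights it was 8 (1.66%).

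**Figure D1:**
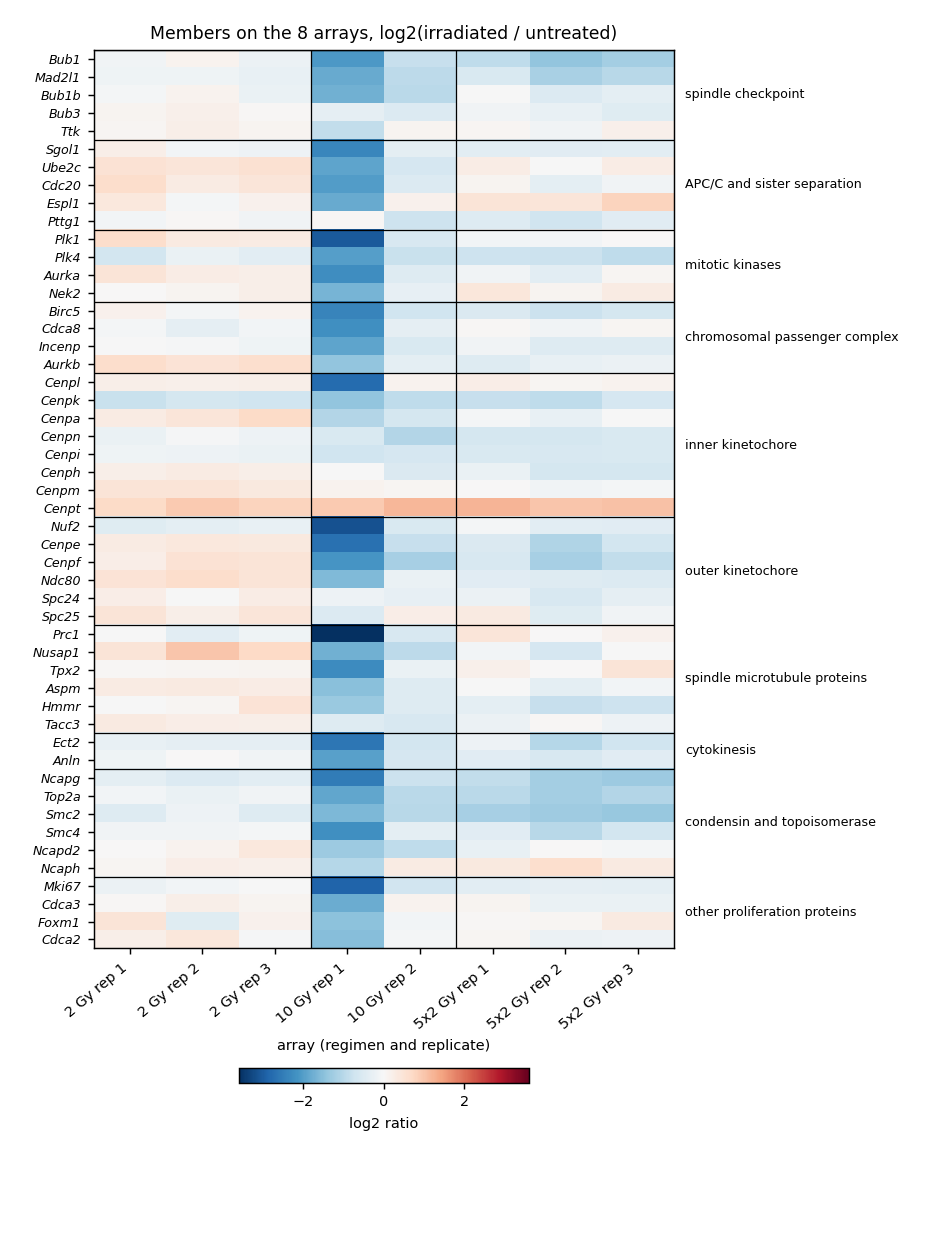
Each row is a gene and each column an array, grouped by regimen, and the colour is the log2 ratio of irradiated over untreated cells. Of the 50 genes, 43 are lower on replicate 1 of 10 Gy than on replicate 2. The median on replicate 1 is -1.76, and Cenpt is above 0 on all 8 arrays.

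The 3 genes with the lowest 10 Gy value were Prc1, which bundles the antiparallel microtubules of the central spindle, Nuf2, a subunit of the microtubule-binding NDC80 complex, and the kinase Plk1. Prc1 had log2 ratios of -0.01, -0.38 and -0.14 at 2 Gy, -3.59 and -0.57 at 10 Gy, and 0.42, 0.02 and 0.15 at 5x2 Gy. Its RNA was thus 12-fold lower on replicate 1 of 10 Gy and 1.48-fold lower on replicate 2, and both lay below every other array. The fitted value at 10 Gy was -2.08 (SE 0.505, adjusted p = 0.0146). Nuf2 measured -0.45, -0.36 and -0.27 at 2 Gy, -3.15 and -0.54 at 10 Gy, and -0.08, -0.39 and -0.41 at 5x2 Gy, so that replicate 2 was just below the lowest 2 Gy array. It fell by 1.84 at 10 Gy (SE 0.438, adjusted p = 0.0132). For Plk1 the ratios were 0.64, 0.34 and 0.28 at 2 Gy, -3.03 and -0.57 at 10 Gy, and -0.09, -0.09 and 0.02 at 5x2 Gy. Plk1 fell by 1.80 at 10 Gy (SE 0.414, adjusted p = 0.0114), and here too both arrays lay below all others.

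The 3 highest values at 10 Gy belonged to Cenpt, Cenpm and Spc25. Cenpt, the inner kinetochore protein that binds DNA and recruits the NDC80 complex, had log2 ratios of 0.69, 0.96 and 0.81 at 2 Gy, 0.95 and 1.21 at 10 Gy, and 1.23, 0.99 and 1.06 at 5x2 Gy. It rose in all 3 regimens, by 0.82 (SE 0.098, adjusted p = 0.00181), 1.08 (SE 0.120, adjusted p = 4.8e-04) and 1.10 (SE 0.098, adjusted p = 1.8e-04), and no 2 Gy array lay above the lowest 5x2 Gy array. Cenpm, a further inner kinetochore subunit, stood at 0.46, 0.47 and 0.36 at 2 Gy, 0.13 and 0.06 at 10 Gy, and 0.01, -0.12 and -0.08 at 5x2 Gy. It was called only at 2 Gy (0.43, SE 0.083, adjusted p = 0.00935), and its 3 groups did not overlap. Spc25, of the NDC80 complex, gave 0.47, 0.21 and 0.44 at 2 Gy, -0.48 and 0.25 at 10 Gy, and 0.33, -0.45 and -0.14 at 5x2 Gy. It was called in no regimen, and its 10 Gy arrays lay on opposite sides of 0.

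The promoters of the extremes at 10 Gy are shown because the genes moved together and because CHR and CCAAT elements are the known cell-cycle elements of such genes. RefSeq promoters, from 250 bases before to 50 after the start on GRCm38.p6, were listed for 43 of the 50 genes. For 4 of the 43, among them Prc1 with 2, more than 1 promoter was listed, and only the first was used. The first 3 below are the lowest and the last 2 the highest at 10 Gy among genes with a listed promoter. Capitals mark a CHR element (TTTGAA or TTCGAA) or a CCAAT box, searched on both strands. The stretches are chr7:80294201-80294500 on the plus strand for Prc1, chr1:169531415-169531714 on the minus strand for Nuf2, chr7:122159185-122159484 on the plus strand for Plk1, chr15:82244287-82244586 on the minus strand for Cenpm and chr8:105851959-105852258 on the minus strand for Cenpt.
Prc1: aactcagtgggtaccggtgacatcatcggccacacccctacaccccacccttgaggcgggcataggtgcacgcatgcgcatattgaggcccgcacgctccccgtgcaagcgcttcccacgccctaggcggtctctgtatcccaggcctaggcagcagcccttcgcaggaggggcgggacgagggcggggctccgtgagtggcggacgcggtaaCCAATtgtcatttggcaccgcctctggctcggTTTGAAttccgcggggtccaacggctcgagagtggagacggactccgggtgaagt
Nuf2: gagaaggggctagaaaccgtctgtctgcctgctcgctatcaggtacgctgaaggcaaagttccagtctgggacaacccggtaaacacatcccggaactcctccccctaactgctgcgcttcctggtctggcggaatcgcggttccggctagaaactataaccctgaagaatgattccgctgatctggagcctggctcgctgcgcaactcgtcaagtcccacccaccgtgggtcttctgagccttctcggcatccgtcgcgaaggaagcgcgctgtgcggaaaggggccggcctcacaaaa
Plk1: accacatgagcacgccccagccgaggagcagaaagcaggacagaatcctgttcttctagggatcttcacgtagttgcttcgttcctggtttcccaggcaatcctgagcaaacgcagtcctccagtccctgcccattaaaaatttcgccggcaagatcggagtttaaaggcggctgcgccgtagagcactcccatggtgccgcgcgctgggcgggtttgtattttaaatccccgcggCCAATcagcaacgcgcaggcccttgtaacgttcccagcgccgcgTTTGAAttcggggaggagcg
Cenpm: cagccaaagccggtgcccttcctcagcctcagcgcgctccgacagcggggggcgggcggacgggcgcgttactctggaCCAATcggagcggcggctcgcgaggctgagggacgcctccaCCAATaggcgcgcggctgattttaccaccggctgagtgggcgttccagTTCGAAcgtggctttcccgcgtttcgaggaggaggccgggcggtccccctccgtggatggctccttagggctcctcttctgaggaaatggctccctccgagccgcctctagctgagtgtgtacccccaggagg
Cenpt: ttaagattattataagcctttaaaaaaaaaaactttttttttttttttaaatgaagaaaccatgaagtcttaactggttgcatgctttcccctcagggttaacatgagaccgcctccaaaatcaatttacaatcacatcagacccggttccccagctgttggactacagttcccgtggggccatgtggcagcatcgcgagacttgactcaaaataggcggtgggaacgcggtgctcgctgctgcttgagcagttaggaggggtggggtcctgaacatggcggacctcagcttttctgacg

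Prc1 and Plk1 each had 1 CHR and 1 CCAAT match, Cenpm had 1 CHR and 2 CCAAT matches, and Nuf2 and Cenpt had neither in these windows. Over the 43 promoters, a CHR sequence was present in 29 (67.4%), against 19.4% of 27025 mouse promoters, the first listed for each gene. A CCAAT box was present in 32 (74.4%), against 37.9%, and both in 27 (62.8%), against 7.70%. The E2F sequences TTTGGCG or TTTCGCG occurred in 3 (6.98%), against 2.39%. Among the genes that fell at 10 Gy, 23 of 33 with a promoter had a CHR sequence, and among the others it was 6 of 10. A match describes the letters of the window and not a bound site.

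The checkpoint genes fell at 10 Gy with the exception of Ttk, the Mps1 kinase that starts checkpoint signalling: 4 of 5 were called lower, with a median of -1.35. The medians on the 2 arrays were -1.73 and -0.82, which was among the lowest of the groups on replicate 2. Bub1, the kinase that recruits the other checkpoint proteins to the kinetochore, had -2.07 and -0.82 at 10 Gy, against -0.13, 0.11 and -0.20 at 2 Gy. It also fell at 5x2 Gy, where the arrays read -0.91, -1.43 and -1.23 (fit -1.19, SE 0.199, adjusted p = 0.00185). A second Bub1 probe, somewhat dimmer, had fitted values of -0.20 at 10 Gy and 0.03 at 5x2 Gy. Mad2l1, the Mad2 protein that captures Cdc20, fell by 1.38 at 10 Gy and by 0.91 at 5x2 Gy. A second Mad2l1 probe, somewhat dimmer, had fitted values of -1.065 at 10 Gy and -0.45 at 5x2 Gy. Bub1b, or BubR1, had -0.07, 0.13 and -0.24 at 2 Gy, -1.73 and -0.98 at 10 Gy, and 0.00, -0.49 and -0.35 at 5x2 Gy. Its 10 Gy arrays lay below all others, while its 5x2 Gy arrays overlapped those of 2 Gy. Bub3, the adaptor that carries Bub1 and BubR1, read 0.11, 0.17 and 0.04 at 2 Gy, -0.33 and -0.48 at 10 Gy, and -0.12, -0.27 and -0.44 at 5x2 Gy. It was called lower at 10 Gy and at 5x2 Gy, but a dimmer second probe of Bub3 had a fitted value of 0.25 at 10 Gy, and without loess the 10 Gy value of the tested probe was 0.13. Ttk measured -0.89 and 0.10 at 10 Gy, on opposite sides of 0, and its irradiated signal on replicate 1 was not above background.

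Of the APC/C and sister separation genes, 3 of 5 were called lower at 10 Gy, with a median of -1.26. Ube2c, the E2 enzyme of the APC/C, had 0.51, 0.44 and 0.55 at 2 Gy, -1.90 and -0.62 at 10 Gy, and 0.26, -0.02 and 0.26 at 5x2 Gy. Its 3 groups did not overlap, and it was called at 10 Gy (-1.26, SE 0.236, adjusted p = 0.00451) but not at 2 Gy or 5x2 Gy. Cdc20, the APC/C activator, and Sgol1, the shugoshin that protects centromeric cohesin (now named Sgo1), fell at 10 Gy by 1.26 and 1.35. Espl1, the separase that cleaves cohesin at anaphase onset, had -1.81 on replicate 1 and 0.15 on replicate 2, and 0.48, 0.45 and 0.79 at 5x2 Gy. Its inhibitor Pttg1, or securin, had 0.04 on replicate 1 and -0.74 on replicate 2, and was called lower only at 5x2 Gy (-0.52, SE 0.139, adjusted p = 0.0146). Neither was called at 10 Gy, where each was below 0 on 1 of the 2 arrays.

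All 4 mitotic kinases fell at 10 Gy, with a median of -1.38 (-2.12 on replicate 1 and -0.52 on replicate 2). Besides Plk1, these were Plk4, which licenses centriole duplication (-1.99 and -0.81), the spindle pole kinase Aurka (-2.25 and -0.47), and Nek2, which helps to separate centrosomes (-1.66 and -0.29). At 5x2 Gy only Plk4 was called, with -0.76, -0.78 and -0.92 (fit -0.82, SE 0.185, adjusted p = 0.00729). Its 2 Gy arrays read -0.66, -0.23 and -0.37 and lay above all of these.

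The chromosomal passenger complex, which corrects faulty attachments and later guides cytokinesis, fell as a whole at 10 Gy: 4 of 4 subunits were called, with a median of -1.24. Birc5, the survivin subunit, had 0.15, -0.07 and 0.13 at 2 Gy, -2.39 and -0.73 at 10 Gy, and -0.52, -0.77 and -0.64 at 5x2 Gy. The value of replicate 2 lay within the range of the 5x2 Gy arrays. It fell by 1.56 at 10 Gy (SE 0.291, adjusted p = 0.00445). The scaffold Incenp had -1.90 and -0.54 and Cdca8, or borealin, -2.20 and -0.33. Aurkb, the kinase of the complex, had -1.43 and -0.35 at 10 Gy, against 0.63, 0.49 and 0.59 at 2 Gy, where it was called higher (0.57, SE 0.167, adjusted p = 0.0447). No subunit was called at 5x2 Gy.

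The inner kinetochore was the most mixed group. At 10 Gy 4 of 8 fell and Cenpt rose, with a median of -0.74, and the medians on the 2 arrays were close, -0.65 and -0.56. Cenpk, a linker subunit, was low in all regimens, with -0.81, -0.64 and -0.71 at 2 Gy, -1.41 and -0.92 at 10 Gy, and -0.84, -0.92 and -0.61 at 5x2 Gy. It was called in each, with fitted values of -0.72 (SE 0.113), -1.17 (SE 0.138) and -0.79 (SE 0.113), and was the only one of the 50 called lower at 2 Gy. Cenpa, the centromeric histone H3 variant itself, had 0.28, 0.43 and 0.70 at 2 Gy, -1.06 and -0.64 at 10 Gy, and -0.08, -0.28 and 0.00 at 5x2 Gy. It rose at 2 Gy (0.47, SE 0.117, adjusted p = 0.0253) and fell at 10 Gy (-0.85, SE 0.144, adjusted p = 0.00272), and its 3 groups did not overlap.

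Cenpn, which reads CENP-A nucleosomes, and Cenpi fell at 10 Gy and at 5x2 Gy. Cenpn had -0.56 on replicate 1 and -1.04 on replicate 2. It was 1 of 7 genes with the lower value on replicate 2, beside Cenph, Cenpm, Pttg1, Bub3, Tacc3 and Spc24. Cenpi was not above background in the irradiated channel on either 10 Gy array, so its fall there is given as at least 1.3-fold (measured mean log2 signals 7.96 irradiated and 8.63 untreated, adjusted p = 0.00159). On the 3 arrays of 5x2 Gy it was not above background in irradiated cells either, and no fold can be given. Cenpl had -2.78 on replicate 1 and 0.12 on replicate 2, so the arrays had opposite signs, and it was not called. Its irradiated signal on replicate 1 was not above background. Cenph was called only at 5x2 Gy (-0.50, SE 0.119, adjusted p = 0.00873).

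In the outer kinetochore 4 of 6 fell at 10 Gy, with a median of -1.28 (-1.85 on replicate 1 and -0.42 on replicate 2). Cenpf, a large protein of the corona that links kinetochores to dynein, was the only one of the 50 at or below -1 on both 10 Gy arrays, a pattern that 0.622% of all genes had. Its ratios were 0.25, 0.52 and 0.47 at 2 Gy, -2.12 and -1.20 at 10 Gy, and -0.59, -1.21 and -0.89 at 5x2 Gy. The irradiated signal on replicate 1 of 10 Gy was not above background, so the size of that ratio is uncertain. It fell at 10 Gy (-1.66, SE 0.209, adjusted p = 7.9e-04) and at 5x2 Gy (-0.90, SE 0.171, adjusted p = 0.00330). The kinesin Cenpe had -2.69 and -0.83 at 10 Gy, and -0.52, -1.08 and -0.67 at 5x2 Gy, and was called in both. The NDC80 complex was split: Ndc80 and Nuf2 fell at 10 Gy, while Spc24 and Spc25, the end that faces the inner kinetochore, were not called there. Spc24 had -0.19 and -0.29 at 10 Gy and was called lower at 5x2 Gy (-0.37, SE 0.102, adjusted p = 0.0171).

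All 6 spindle microtubule genes fell at 10 Gy, with a median of -1.12 (-1.62 on replicate 1 and -0.52 on replicate 2). Nusap1, which stabilises microtubules near chromosomes, had 0.46, 0.98 and 0.71 at 2 Gy, -1.72 and -0.94 at 10 Gy, and -0.11, -0.60 and -0.02 at 5x2 Gy. It rose at 2 Gy (0.72, SE 0.169, adjusted p = 0.0200), fell at 10 Gy (-1.33, SE 0.207, adjusted p = 0.00187), and its 3 groups did not overlap. Tpx2, the activator of Aurora A, read -2.25 and -0.25 at 10 Gy. Tacc3, which with clathrin cross-links spindle fibres, was close on the 2 arrays, at -0.46 and -0.57. Hmmr, a spindle assembly protein, was the only gene of this group called at 5x2 Gy, with -0.36, -0.82 and -0.74. The spindle pole protein Aspm was called lower at 10 Gy, but 2 dimmer probes of it had fitted values of 0.08 and 0.42 there.

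Both cytokinesis genes fell at 10 Gy, with a median of -1.45. Ect2, the exchange factor that activates RhoA at the cleavage site, had -0.25, -0.33 and -0.34 at 2 Gy, -2.60 and -0.65 at 10 Gy, and -0.20, -1.02 and -0.72 at 5x2 Gy. Its 5x2 Gy arrays ran from above those of 2 Gy to below replicate 2 of 10 Gy. A dimmer probe of Ect2 had fitted values of -0.59 at 10 Gy and -0.06 at 5x2 Gy. Anln, the anillin of the contractile ring, had -1.95 and -0.61 at 10 Gy.

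On the brightest probe of each gene, 5 of 6 condensin and topoisomerase genes fell at 10 Gy (median -1.30). This group had the lowest median at 5x2 Gy, -0.89, with 3 of 6 called. Smc2, the SMC subunit common to both condensins, had -0.46, -0.19 and -0.47 at 2 Gy, -1.62 and -0.99 at 10 Gy, and -1.19, -1.28 and -1.35 at 5x2 Gy. The 5x2 Gy arrays lay between those of 10 Gy, and the fitted values were -1.31 (SE 0.151, adjusted p = 5.7e-04) at 10 Gy and -1.28 (SE 0.123, adjusted p = 2.0e-04) at 5x2 Gy. Dimmer probes of Smc2 had fitted values of -0.73, -1.065 and -0.63 at 10 Gy, but -0.10, -0.90 and -0.29 at 5x2 Gy. Top2a, the topoisomerase that untangles sister DNAs, had -0.09, -0.24 and -0.12 at 2 Gy, -1.86 and -0.97 at 10 Gy, and -0.98, -1.22 and -1.07 at 5x2 Gy. It fell by 1.42 at 10 Gy (SE 0.181, adjusted p = 8.2e-04) and by 1.09 at 5x2 Gy (SE 0.147, adjusted p = 7.1e-04). A dimmer probe of Top2a had fitted values of -0.97 at 10 Gy and -0.30 at 5x2 Gy.

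The condensin I subunit Ncapg also fell in both regimens, by 1.65 at 10 Gy and 1.14 at 5x2 Gy. A dimmer probe of Ncapg had fitted values of -0.85 and -0.55. Ncapd2, of the same complex, had 0.00, 0.14 and 0.37 at 2 Gy, -1.32 and -0.90 at 10 Gy, and -0.26, 0.01 and -0.06 at 5x2 Gy, and was called at 10 Gy only. Its partner Ncaph had -1.02 on replicate 1 and 0.29 on replicate 2, and 0.34, 0.60 and 0.34 at 5x2 Gy, and was called in no regimen.

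The remaining 4 genes were less uniform, with 1 called at 10 Gy. That gene was Mki67, the Ki-67 protein that coats mitotic chromosomes, with -0.21, -0.11 and -0.02 at 2 Gy, -2.87 and -0.70 at 10 Gy, and -0.37, -0.33 and -0.36 at 5x2 Gy (fit at 10 Gy -1.79, SE 0.365, adjusted p = 0.00663). Foxm1, the transcription factor, had -1.49 and -0.11 at 10 Gy and was not called. Cdca2 (-1.53 and -0.06) and Cdca3 (-1.78 and 0.12) were low on replicate 1 alone, and Cdca3 had a saturated spot.

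**Figure D2:**
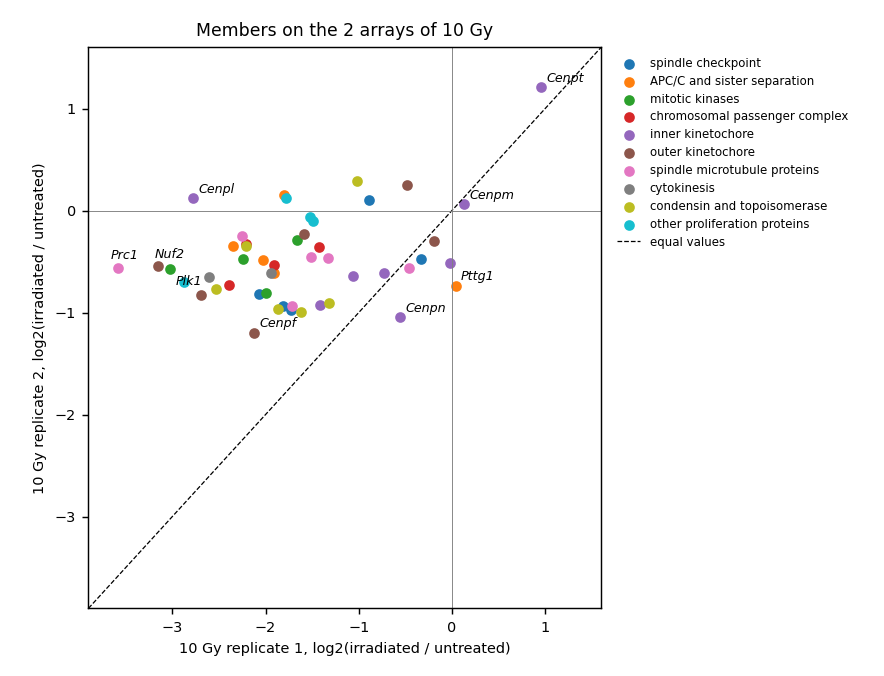
Each point is a gene, coloured by functional group, with its log2 ratio on replicate 1 of 10 Gy (horizontal) and on replicate 2 (vertical); the dashed line marks equal values. Of the 50 genes, 43 have the lower value on replicate 1, and the correlation across the genes is 0.358.

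The difference between the 10 Gy arrays was itself large for these genes. The SD between the 10 Gy arrays had a median of 0.895 over the 50 genes and 0.287 over all genes, whereas at 2 Gy it was 0.0954 and 0.129 and at 5x2 Gy 0.161 and 0.120. Replicate 1 was lower than replicate 2 for 43 of 50 genes, against 52.3% of all genes, with a median difference of -1.27. By channel, the irradiated signal of the 50 genes differed from its mean over the 8 arrays by a median of -1.15 (log2) on replicate 1 and -0.115 on replicate 2. For the untreated signal these differences were 0.145 and -0.0166. Replicate 1 also had the widest log2 ratios over all genes, with an SD of 0.695, where replicate 2 had 0.464. The part of the slide, of the culture and of the array in this difference was not tested.

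**Figure D3:**
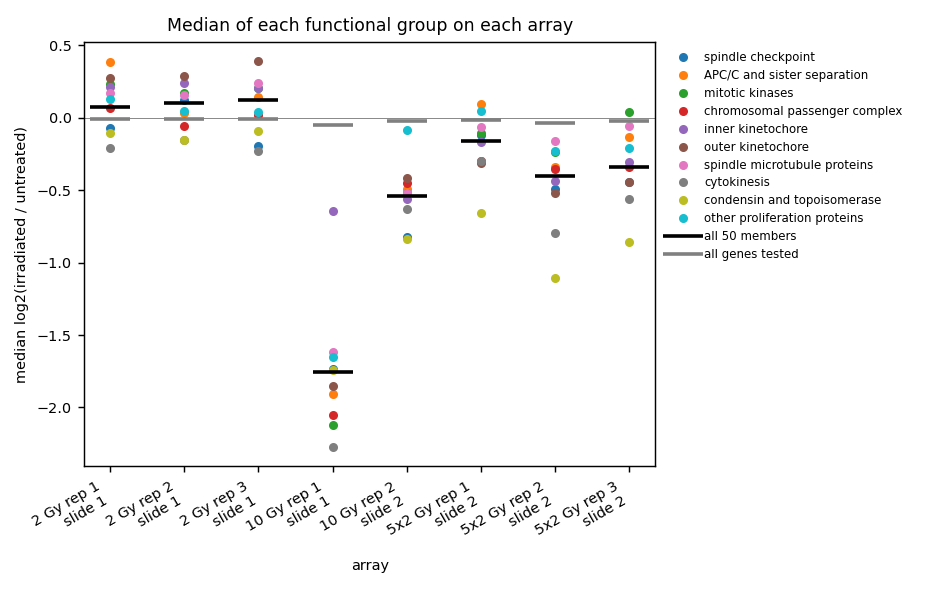
The vertical axis is the median log2 ratio of irradiated over untreated cells for each functional group (coloured points), for all 50 genes (black bars) and for all genes tested (grey bars), on each array with its slide. On replicate 1 of 10 Gy the inner kinetochore, at -0.65, lies above the other groups, whose medians run from -2.27 to -1.62.

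At 2 Gy few of the 50 genes were called. Higher calls numbered 5 (Nusap1, Aurkb, Cenpa, Cenpm and Cenpt), where 8.98% of all genes were called higher. There was 1 lower call (Cenpk), where 7.95% of all genes were called lower (16.9% in all). The medians of the 50 genes on the 3 arrays were 0.07, 0.10 and 0.12. With the 2 Gy arrays fitted alone, outside the spread of the 10 Gy arrays, 16 genes were called higher and 6 lower, where 35.9% of all genes were called. Leaving out replicate 1 or replicate 2 of 10 Gy gave 23 calls (40.2% of all genes), and leaving out any 1 of the 2 Gy replicates gave 2. With a slide block the median of the 50 genes at 2 Gy was 0.77 and 39 were called (33.3% of all genes), and with a random slide block it was 0.55 and none was called (0.157%). When the arrays were centred on their median without loess, the median of all genes moved to 0.13 and that of the 50 genes to 0.33. Of the 50, 15 were then called higher and 1 lower, where 27% of all genes were called.

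At 5x2 Gy, the same total dose as 10 Gy, 16 of 50 genes fell and 1 (Cenpt) rose, where 23.4% of all genes were called lower and 17.6% higher (41% in all). The median was -0.29 over the 50 genes and -0.02 over all genes, and on the 3 arrays the medians were -0.16, -0.40 and -0.34. Of the 50, 30 lay below 0 on all 3 arrays, against 40% of all genes. Above 0 on all 3 arrays were 8 of the 50, against 35.6% of all genes. The genes that fell were Bub1, Mad2l1 and Bub3 of the checkpoint, Cenpk, Cenpn, Cenpi and Cenph of the inner kinetochore, Cenpe, Cenpf and Spc24 of the outer kinetochore, Ncapg, Smc2 and Top2a, and besides these Pttg1, Plk4 and Hmmr. Of the passenger complex and the cytokinesis genes none was called. Fitted alone, with the smaller spread of the 5x2 Gy arrays, 27 were called lower and 4 higher, where 59.9% of all genes were called. Leaving out replicate 1 or replicate 2 of 10 Gy gave 32 calls (59.6% of all genes), and leaving out 5x2 Gy replicate 2 or 3 gave 11 or 10 (23.1% and 22.4%). With a slide block the median was -0.92 and 38 were called (36.6%).

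**Figure D4:**
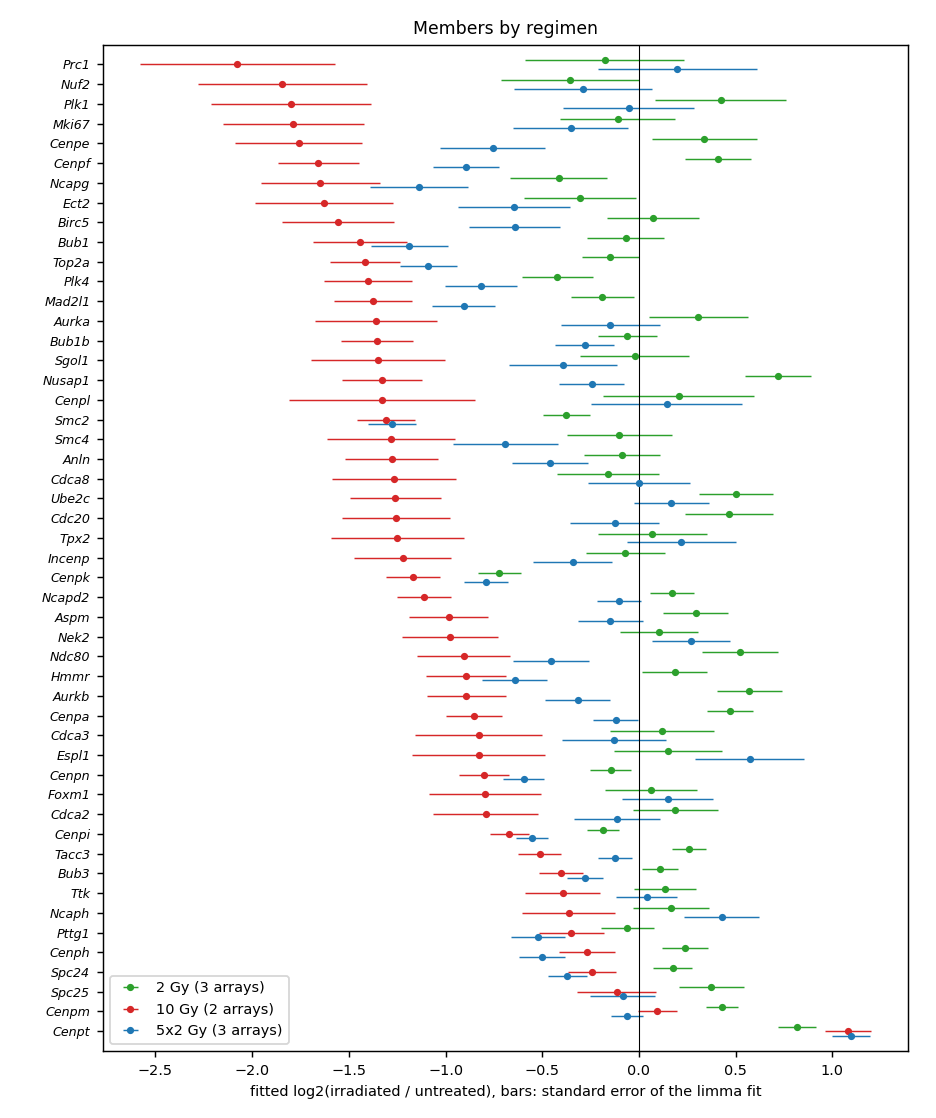
Points are the fitted log2 ratios of irradiated over untreated cells of each gene at 2 Gy, 10 Gy and 5x2 Gy, sorted by the 10 Gy value, and bars are the standard error of the limma fit, which pools the spread of all regimens. The 10 Gy points run from -2.08 for Prc1 to 1.08 for Cenpt.

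Set directly against 2 Gy, 15 of the 50 genes were lower at 10 Gy and none higher, where 1.52% of all genes were called lower and 1.04% higher (2.56% in all). The median difference was -1.19, and for 42 of 50 both 10 Gy arrays lay below every 2 Gy array, against 18.2% of all genes, and for none above (14%). The smallest adjusted p, 0.0224, was shared by Cenpf (-2.07, SE 0.270), Nusap1 (-2.05, SE 0.267), Ncapd2 (-1.28, SE 0.180) and Cenpa (-1.32, SE 0.186). Prc1, Nuf2 and Plk1, the lowest at 10 Gy, were not among the 15, and their 10 Gy arrays were far apart. Within slide 1, replicate 1 of 10 Gy lay below every 2 Gy array for 48 of 50 genes, against 42.2% of all genes, by a median of -1.82. No slide held replicate 2 of 10 Gy beside a 2 Gy array. Without replicate 1 of 10 Gy the median difference was -0.55, which is a difference between slides. The count of calls was 0 when any 1 of the 2 Gy or 5x2 Gy arrays was left out. Without a 10 Gy array that regimen has 1 array left, and no count is given.

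Fractionation was set against the single dose of the same total. No gene of the 50, and none of all genes (0%), was called between 5x2 Gy and 10 Gy by limma. At an unadjusted p of 0.05, 25 of the 50 were higher at 5x2 Gy and none lower, where 16.7% of all genes passed in either direction. The median difference was 0.75. For 23 of the 50 every 5x2 Gy array lay above both 10 Gy arrays (15.6% of all genes), and for 1, Cenpm, below both (14.4%). The size of the difference came mostly from replicate 1 of 10 Gy: within slide 2 the median of the mean 5x2 Gy value minus replicate 2 of 10 Gy was 0.14. Replicate 2 there lay below every 5x2 Gy array for 26 genes (29.8% of all genes) and above every one for 9 (31.4%). Without replicate 2 of 10 Gy, which leaves 1 array of that regimen on the other slide, the median difference was 1.40.

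Between 5x2 Gy and 2 Gy, 2 of the 50 were called, both lower: Cenpf (-1.31, SE 0.242, adjusted p = 0.0441) and Smc2 (-0.90, SE 0.175, adjusted p = 0.0466), where 0.922% of all genes were called lower. The median difference was -0.39, and for 31 of 50 every 5x2 Gy array lay below every 2 Gy array, against 25.9% of all genes. For 4 the order was the reverse, against 21.1%. Each of these 2 regimens lay on a slide of its own, and only the 10 Gy arrays link the slides. With a slide block the median difference was -1.66 and 39 were called (17.7% of all genes), and with a random one it was -1.28 and 20 were called (1.77%). Leaving out replicate 1 or replicate 2 of 10 Gy gave 31 calls (29.9% of all genes), and leaving out any 1 of the 2 Gy or 5x2 Gy replicates gave none. A difference of any kind among the 3 regimens was called for 7 of the 50 genes and 1.46% of all genes. Without any 1 of the 2 Gy or 5x2 Gy arrays the count was 0. Without a 10 Gy array no count is given, since that regimen then has 1 array.

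Other genes of mitosis, taken from a list of 64 that excludes the 50, moved less. At 10 Gy 33 fell and 3 rose, where 15.8% of all genes were called lower and 12.4% higher. The median of the 64 was -0.59, and the array medians were -1.04 on replicate 1 and -0.18 on replicate 2. Depdc1a (-1.61) and Cks2 (-1.49), a subunit of the cyclin-dependent kinases, fell. Psrc1, a p53-responsive spindle protein, rose in all 3 regimens, by 0.87 at 2 Gy, 1.23 at 10 Gy and 0.98 at 5x2 Gy. Of 15 genes of the APC/C, its core subunits and the coactivator Fzr1, 3 fell and 1 rose at 10 Gy. These counts lay near the shares of all genes, and the median of the 15 was -0.16. Cdc27 had the lowest value, -1.78 at 10 Gy and -1.32 at 5x2 Gy. Of 12 MuvB and DREAM genes, 4 fell at 10 Gy, against 15.8% of all genes, with a median of -0.37. Among the 4 were the pocket protein Rbl1 (-1.42), E2f5 (-0.76) and the MuvB subunit Lin9 (-0.62). Mybl2, which encodes B-Myb, was called lower at 2 Gy (-0.81).

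Beside the values stand some limits of the spots. Of the 50 genes, 19 had a flagged spot on at least 1 array, and the meaning of the flags is not given. In the irradiated channel 6 were not above background on at least 1 array: Cenpi as above, Cenpf, Cenpl and Aspm on replicate 1 of 10 Gy, Ttk on that array and 1 of 5x2 Gy, and Hmmr on that array and 2 of 5x2 Gy. In the untreated channel none was. Of 20 genes with more than 1 kept probe, 18 had probes of the same sign at 10 Gy, the exceptions being Aspm and Bub3, and the tested probe had the largest change in 18.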

How the data were processed

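Per the file headers, the deposited scanner files hold spot intensity per channel, quantified in ImaGene 9.0, with no background correction, normalization or background column. In the matrix that the authors deposited, values are log2 ratios, Cy5 over Cy3. Set against loess ratios of the same arrays, its columns gave r of 0.998 to 1.000, which settled scale and direction, and column medians of -0.00454 to 0.00867. It served as an alternative.

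In limma 3.58.1 (R 4.3.3), mean signals were corrected with normexp (offset 50) and normalized by loess within arrays, control spots at weight 0. Probes above the median of 153 negative controls plus 2.6 robust SD in 1 channel or more on at least 2 arrays were kept, 21685 of 41174. The 8 arrays had 34.7% to 47.5% of probes above background in irradiated and 44.8% to 49.1% in untreated cells; the number of arrays limits the precision. Names came through accessions (27190 probes) or synonyms (420) of the RefSeq table of GRCm38.p6, otherwise from the array (7334), and 6230 probes had none. The brightest kept probe stood for a gene, 13337 genes in all. For a gene not above background, the bound compares with the lowest signal detected on each array.

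The model had a mean for each regimen over the 8 arrays, with eBayes and a spread common to the regimens, and Benjamini-Hochberg adjustment ran over all genes. Slides were read from the image names in the headers. Same-numbered arrays had deviations correlated at -0.243 to 0.114, and were not taken as pairs. The script was tested on simulated data. Alternatives concerned background, normalization, filter, probe rule, flagged spots, slide, replicate number, array weights and arrays left out. All 50 genes may be named. Values on every array were chosen by rank at 10 Gy, smallest p per comparison and brightness per group, with further genes added for their roles. Promoters are RefSeq's, 5′ to 3′ on the gene's strand. The members, the lists and their tests were chosen with earlier results of these data known.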

Additional observations from a re-analysis of the deposited data

Results flagged for a closer look

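By a test of the difference itself, the effect of irradiation was called different between regimens for 15 genes at 10 Gy against 2 Gy. All 15 were lower at 10 Gy, where 1.52% of all genes were called lower. The differences were -2.10 for Cenpe, -2.07 for Cenpf, -2.05 for Nusap1, -1.76 for Ube2c and -1.72 for Cdc20. For Aurkb it was -1.46, for Ndc80 -1.43, for Cenpa -1.32, for Bub1b -1.29, for Ncapd2 -1.28, for Aspm -1.28 and for Top2a -1.27. Mad2l1 differed by -1.19, Smc2 by -0.93 and Tacc3 by -0.77. Between 5x2 Gy and 2 Gy the same test picked Cenpf (-1.31) and Smc2 (-0.90), both lower at 5x2 Gy, where 0.922% of all genes were called lower. Each of the 17 differences passed limma's adjusted p of 0.05 over all genes. None of the 17 was called when any 1 of the 2 Gy or 5x2 Gy arrays was left out, or with the replicate block. None of the 15 was called with array weights or with only the arrays compared. The 10 Gy side of the 15 rests on 2 arrays on different slides, and the 5x2 Gy against 2 Gy difference lies between slides. The irradiated signals of Cenpf and Aspm were not above background on replicate 1 of 10 Gy.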

How the results depend on the processing

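Counts of genes called, of the 50, moved as follows. The share of all genes called under the same setting is in brackets or in sentences after the counts. At 10 Gy against untreated cells (38 called, 28.3%) they were 8 with array weights (1.66%) and 14 with only the arrays compared (2.25%). Leaving out 1 of the 2 Gy or 5x2 Gy arrays gave 37 or 38 (21.8% to 24.3%). Without 1 of the 10 Gy arrays that regimen rests on 1 array, and no count is given here for such fits. At 2 Gy (6) they were 16 with median centring, 11 with scaling, 39 with a slide block, 0 with a random slide block, 28 with array weights and 22 with only the arrays compared; leaving out 1 array gave 2 to 23. At 5x2 Gy (17) they were 38 with a slide block, 34 with array weights and 31 with only the arrays compared; leaving out 1 array gave 10 to 32. At 2 Gy the shares of all genes were 16.9% as reported, 27% with median centring and 30.8% with scaling. They were 33.3% with a slide block, 0.157% with a random one, 54.6% with array weights and 35.9% with only the arrays compared. At 5x2 Gy they were 41% as reported, 36.6% with a slide block, 66.8% with array weights and 59.9% with only the arrays compared. In both ranges the highest count came without a 10 Gy array, which left 1 array there. For 10 Gy against 2 Gy (15, 2.56%) the counts were 3 with scaling (0.202%) and 44 with a slide block (32.1%). With a random block they were 44 (21.7%). They were 0 with the replicate block (0%), with array weights (0.015%) and with only the arrays compared (0%). Leaving out 1 of the 2 Gy or 5x2 Gy arrays gave 0 (at most 0.0375%). For 5x2 Gy against 10 Gy (0) there was 1 with flagged spots left out, and leaving out 1 array gave 0 to 41. The share of all genes there was 0% as reported and 0.00797% with flagged spots left out. The upper end of that range came without replicate 2 of 10 Gy, which left 1 array of that regimen. For 5x2 Gy against 2 Gy (2, 1.3%) the counts were 11 with median centring (5.57%) and 0 with scaling (0.42%). With the median pixel signal they were 0 as well (0.345%). They were 1 with a filter on both channels (1.41%), with the mean over probes (1.81%) and with a trend (0.862%). With a slide block they were 39 (17.7%), with a random one 20 (1.77%) and with the replicate block 0 (0%). With array weights they were 31 (44.9%), and with only the arrays compared 31 (29.9%). Leaving out 1 of the 2 Gy or 5x2 Gy arrays gave 0 (0%). For any difference (7) they were 4 with offset 0, 17 with median centring, 0 with scaling, 4 with the mean over probes, 44 with a slide block, 40 with a random one, 0 with the replicate block, 42 with array weights and 2 with a trend; leaving out 1 array gave 0 to 49. For any difference the shares of all genes were 1.46% as reported, 1.14% with offset 0, 3.92% with median centring and 0.15% with scaling. They were 1.18% with the mean over probes, 27.2% with a slide block and 14.6% with a random one. With the replicate block the share was 0%, with array weights 36.4% and with a trend 0.142%. Here too the upper end came without replicate 2 of 10 Gy. The replicate block moved no other count by over 1.5 times, and same-numbered arrays shared only a number. With a slide block, whose term comes from the 10 Gy pair alone, signs turned for 16 of the 50 genes at 2 Gy, 11 of them called with the block, for 9 at 5x2 Gy, 6 of them called, and for 10 between 5x2 Gy and 2 Gy, 8 of them called. Among the 19 genes named by rule and past the threshold with the block these were Ect2 (0.67), Mki67 (0.97), Nuf2 (0.95) and Prc1 (1.33) at 2 Gy, Prc1 (-1.31) and Ube2c (-0.48) at 5x2 Gy, and Nuf2 (-2.54) and Prc1 (-2.64) between 5x2 Gy and 2 Gy. Bub3 turned to 0.13 at 10 Gy with median centring and to 0.21 at 5x2 Gy with the mean over probes. The median over the 50 genes moved by more than 0.393 only with either slide block or without a 10 Gy replicate. With the random block it was -1.62 for 10 Gy against 2 Gy and 0.33 for 5x2 Gy against 10 Gy. The 0.393 is the SD of this median between arrays of a regimen, pooled over regimens, with the 10 Gy pair far apart. At 2 Gy the array medians were 0.07, 0.10 and 0.12, so it is a coarse measure there. With median centring the 2 Gy median went from 0.11 to 0.33. Over the same 19 genes and all comparisons and alternatives, 2380 values kept sign and call, 178 gained a call and 156 lost one. The causes were not tested. Signal near background limits Cenpi, Cenpf, Cenpl, Aspm, Hmmr and Ttk.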
